A study of Mus musculus with 27 samples.

Results

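C2C12 myotubes collected 54 h after a serum pulse were compared with myotubes collected 30 h after the same pulse. The samples lie 24 h apart, near the trough of the clock output gene Dbp, so the comparison reads how gene expression drifts over a day between similar phases of Dbp. Period and phase were not estimated, and a shift of phase between the 2 times was not tested. It uses the 6 libraries labelled with these time points, 3 at 54 h and 3 at 30 h, of 27 libraries in 9 time points spaced 6 h apart from 12 to 60 h. C2C12 is an established mouse myoblast line whose cells stop dividing and fuse into multinucleated myotubes in low serum. The cells of both groups were grown in 10% FBS, differentiated in 2% horse serum and given 50% horse serum for 2 h. No culture without the pulse was analysed here, so time after the pulse and time in differentiation medium cannot be told apart. Ribosomal RNA was removed from total RNA and stranded libraries were sequenced, with 15.2 to 26.6 M counted reads in the 6 libraries.

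A serum pulse switches on growth factor signalling and sets the clocks of cultured cells to a common phase, after which the clock runs in a loop: BMAL1 and CLOCK activate the Per, Cry and Nr1d genes, whose products repress BMAL1 and CLOCK. Differentiation goes on meanwhile in such cultures, with myogenin and the membrane protein myomixer acting early, at commitment and fusion, and adult fast myosins appearing later. ATF4 is a transcription factor whose translation rises when amino acids are scarce or the endoplasmic reticulum is stressed, and it switches on genes of amino acid synthesis, uptake and tRNA charging.

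The libraries carried muscle transcripts at high levels at both times. In CPM (reads of a gene scaled to the size of its library), Des, which encodes desmin, held 2930 to 3466 CPM at 54 h and 2893 to 3469 CPM at 30 h, and Acta1, skeletal actin, held 3933 to 4573 CPM at 54 h and 3942 to 4309 CPM at 30 h. Neither was called. Markers of immune and endothelial cells summed to 3.31 to 3.67 CPM at 54 h and 2.56 to 3.65 CPM at 30 h, with Adgre1, Cd3e, Tie1 and Emcn at 0 in all 6 libraries. Adipocyte markers summed to 25.1 to 25.5 CPM at 54 h and 24.2 to 27.2 CPM at 30 h, with Adipoq, Plin1, Cidec and Cfd at 0. Neural and Schwann markers summed to 794 to 979 CPM at 54 h and 773 to 959 CPM at 30 h. Of this list Snap25 and Sox10 were at 0, but Nefl had 31.6 to 37.9 CPM at 54 h and 39.1 to 44.3 CPM at 30 h. The genes at 0 thus do not show that neural transcripts were absent. The library numbered 2 stood apart from the other two at both times: the chi-square per degree of freedom between libraries numbered 1 and 3 was 5.81 at 54 h and 7.04 at 30 h, and every pair with number 2 gave at least 18.4. The labels do not say whether libraries of a time point came from separate cultures, so the p-values speak only of how much these libraries vary, and that variation may be technical. In bulk RNA, fewer cells of a type and less RNA per cell cannot be told apart.

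In the fit without a replicate block, the drift between 30 and 54 h reached few genes and was modest in size. Of 12687 genes tested, 132 were higher and 84 lower at 54 h (edgeR quasi-likelihood test, Benjamini-Hochberg adjusted p under 0.05), which is 1.04% and 0.662% of those tested and 1.7% together. An unadjusted p under 0.05 was found for 1205 genes, or 9.50%. These calls rest on the spread estimated from all 27 libraries: with the 6 libraries of 54 h and 30 h fitted alone, 5 genes were higher and 1 lower. The called genes had a median log2 change of 0.53 where higher and -0.55 where lower, against 0.00 over all genes tested, and 15 of the higher and 10 of the lower genes changed at least 2-fold. The middle 90% of all genes tested lay between -0.31 and 0.36 on the log2 scale. In all 216 called genes the 3 libraries of 54 h did not overlap the 3 of 30 h, which was true of 12.7% of all genes tested, 6.68% with 54 h above and 6.07% with 54 h below. With the replicate number as a block, 382 genes were higher and 287 lower (3.01% and 2.26%), and these include all 132 and 84. Without the first library of 30 h the counts were 58 and 34, without the second of 54 h 73 and 43, and without the first of 54 h 79 and 41. Without the second of 30 h they were 81 and 60, and in the libraries numbered 1 and 3 alone 39 and 29.

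**Figure D1:**
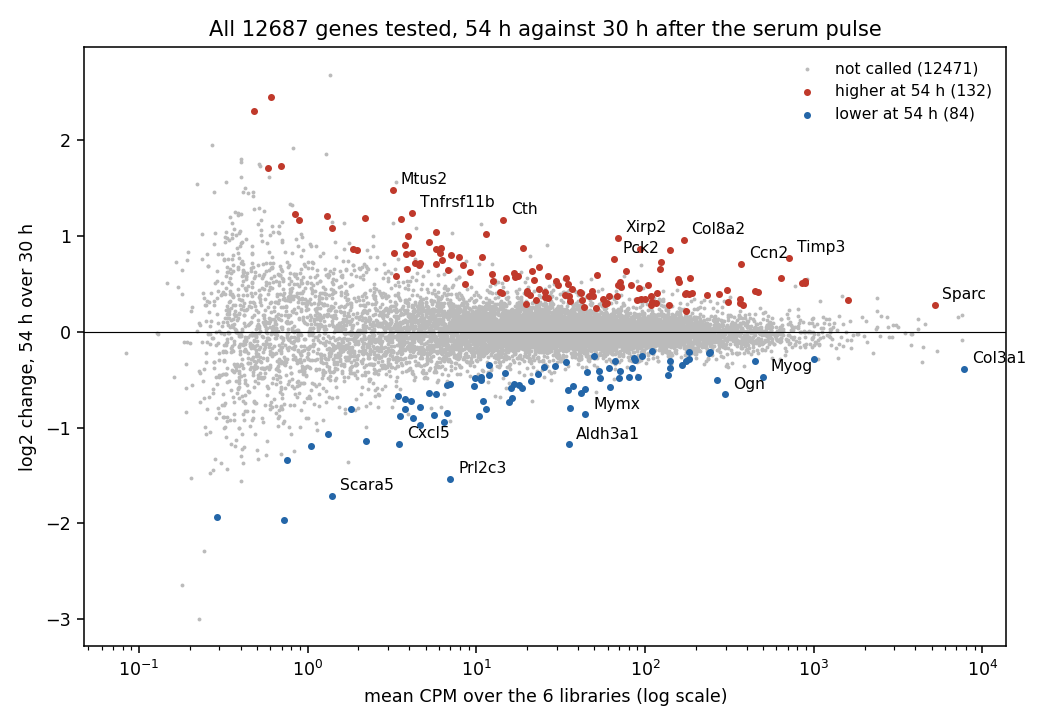
Each point is 1 of the 12687 genes tested, with its mean level over the 6 libraries in CPM (log scale, horizontal) and its log2 change, 54 h over 30 h (vertical). Red points are the 132 genes higher and blue points the 84 genes lower at 54 h; most called changes are smaller than 2-fold, and they occur among weakly and strongly expressed genes.

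No core clock gene was called between the 2 times in the fit of all libraries. Of the 20 tested, 0 passed in edgeR, DESeq2 or limma-voom, 2 had an unadjusted p under 0.05 and the median log2 change was 0.02. Without the second library of 54 h 1 was called lower, and without any other single library 0 were. Dbp, a transcription factor under direct clock control, had 7.07, 7.08 and 6.65 CPM at 54 h, against 6.37, 6.44 and 5.76 CPM at 30 h, a log2 change of 0.17 ± 0.10 (SE; adjusted p in edgeR = 0.74). Its means at these times, 6.93 CPM at 54 h and 6.19 CPM at 30 h, were its lowest among the 9 time points, beside 13.5 CPM at 48 h and 14.95 CPM at 24 h. Arntl, which encodes BMAL1, had 40.8, 49.2 and 43.8 CPM at 54 h, against 39.2, 44.5 and 39.3 CPM at 30 h (log2 0.12 ± 0.10; edgeR adjusted p = 0.896). The 2 sets of libraries overlapped for Arntl but not for Dbp. The repressors Per1, Per2, Per3, Cry1 and Cry2 had log2 changes of 0.04 ± 0.29, 0.17 ± 0.16, -0.13 ± 0.19, -0.05 ± 0.08 and -0.09 ± 0.18 (SE).

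Nr1d1 and Nr1d2, which encode the REV-ERB receptors that repress Arntl, had log2 changes of -0.10 ± 0.42 and 0.04 ± 0.09 (SE). Clock, Npas2 and Arntl2, of the activating arm, had 0.02 ± 0.09, 0.42 ± 0.53 and 0.27 ± 0.19. Rora, Ciart, Nfil3, Bhlhe40 and Bhlhe41, which encode further regulators of the loop, had 0.03 ± 0.20, -0.01 ± 0.23, 0.19 ± 0.09, 0.32 ± 0.19 and -0.11 ± 0.10. Of the other output factors, Tef had -0.01 ± 0.09 and Hlf, at 0.112 to 0.221 CPM at 54 h and 0.195 to 0.394 CPM at 30 h, -0.73 ± 0.64.

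Myogenin and myomixer were both lower at 54 h. Mymx, which encodes myomixer (ENSMUSG00000079471, chr17:45600971-45602102, mm10), had 29.8, 33.8 and 30.6 CPM at 54 h, against 56.2, 56.6 and 58.4 CPM at 30 h. The highest library of 54 h was well below the lowest of 30 h, and the log2 change was -0.86 ± 0.09 (SE; adjusted p in edgeR = 1.13e-05). Myog, which encodes myogenin (ENSMUSG00000026459, chr1:134289989-134292548), had 393, 445 and 421 CPM at 54 h, against 567, 598 and 575 CPM at 30 h, a log2 change of -0.47 ± 0.08 (edgeR adjusted p = 9.31e-04). Both stayed called without any single library. These were the 2 of 18 myogenic regulators that passed; the median of the 18 was -0.10, and 13 had a negative change. Mymk, the fusion partner of myomixer, had 178 to 331 CPM at 54 h and 207 to 353 CPM at 30 h, a log2 change of -0.18 (edgeR adjusted p = 1.00).

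Of 47 sarcomere genes tested, 4 were higher, 0 lower, and the median log2 change was 0.01. Over all genes tested 1.04% were higher and 0.662% lower. Myh4, which encodes the fast myosin IIB, had 1090, 940 and 1083 CPM at 54 h, against 734, 692 and 755 CPM at 30 h. Every library of 54 h was higher, and the log2 change was 0.51 ± 0.08 (SE; adjusted p in edgeR = 7.06e-04). Mybpc2, the fast myosin binding protein C, rose by 0.49 ± 0.06 on the log2 scale (adjusted p = 3.15e-05), Lmod2, which lengthens thin filaments, by 0.47 ± 0.09 (0.00324) and Mylk2, the skeletal myosin light chain kinase, by 0.42 ± 0.10 (0.0286). Mylk2 lost its call without any library but the third of 30 h (adjusted p 0.0577 to 0.154). No sarcomere gene was lower in edgeR or limma-voom, although 4 had a negative change with an unadjusted p under 0.05, and DESeq2 called 1. With the replicate block 6 were higher and 3 lower, beside 3.01% and 2.26% of all genes tested. Among 20 genes of triads and calcium handling, 0 passed in edgeR (DESeq2 called 1 lower, and 4 had an unadjusted p under 0.05); Atp2a1, the fast calcium pump, had a log2 change of -0.28 ± 0.08 (adjusted p = 0.0743, and 0.00358 with the replicate block). Of 12 genes of the acetylcholine receptor and postsynaptic membrane 11 had a negative change, with a median of -0.14, and 0 passed in edgeR, DESeq2 or limma-voom (1 had an unadjusted p under 0.05). With the replicate block 2 of the 12 were lower.

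Among genes higher at 54 h, 11 of the 12 largest rises of at least 1 CPM on average are described here, and they spanned log2 changes of 0.94 to 1.49. Mtus2, a microtubule-associated protein (ENSMUSG00000029651, chr5:147957320-148316065), led them, with 5.36, 4.68 and 4.12 CPM at 54 h, against 1.36, 1.77 and 1.92 CPM at 30 h. The lowest library of 54 h exceeded the highest of 30 h, and the log2 change was 1.49 ± 0.21 (SE; adjusted p in edgeR = 2.77e-04). Tnfrsf11b, which encodes osteoprotegerin, a decoy receptor for RANKL, had 6.19, 5.54 and 5.73 CPM at 54 h, against 1.95, 3.22 and 2.31 CPM at 30 h (log2 1.24 ± 0.18; adjusted p = 2.77e-04). Xirp2, a muscle actin-binding protein, had 107, 78.7 and 89.1 CPM at 54 h, against 44.8, 40.1 and 54.2 CPM at 30 h (log2 0.98 ± 0.19; adjusted p = 0.00576). Armh4, a membrane protein, had 6.36, 7.83 and 6.50 CPM at 54 h, against 3.80, 2.89 and 4.03 CPM at 30 h (log2 0.94 ± 0.18; adjusted p = 0.005). These 4, Cth and Col8a2 stayed called without any single library. The 5 described next did not.

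Slamf9, an immune receptor of the SLAM family, Car6, a secreted carbonic anhydrase, and Ppp1r3c, a glycogen-targeting subunit of protein phosphatase 1, rose by 1.21 ± 0.24, 1.19 ± 0.25 and 1.17 ± 0.26 on the log2 scale (SE). Fmod, the collagen-binding proteoglycan fibromodulin, rose by 1.05 ± 0.21 on that scale and Asprv1, an aspartic protease of skin, by 1.00 ± 0.20. Ppp1r3c was uneven at 54 h, with 2.82, 6.03 and 6.06 CPM, against 2.38, 1.64 and 2.56 CPM at 30 h. Slamf9 lost its call without the second library of 54 h (edgeR adjusted p = 0.0696) or the third of 30 h (0.0688), Car6 without the third of 54 h (0.0546) or the first of 30 h (0.108), and Asprv1 without the first of 30 h (0.0885). Fmod lost it without the first (0.0536) or the third (0.0566) library of 54 h or the first (0.0573) or second (0.0664) of 30 h. For Ppp1r3c this happened without the second (0.103) or the third (0.0902) of 54 h or the first (0.069) or second (0.0979) of 30 h.

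Among genes lower at 54 h, the 12 largest falls of at least 1 CPM on average spanned log2 changes of -1.71 to -0.87. Scara5, a scavenger receptor that binds ferritin (ENSMUSG00000022032, chr14:65666403-65764826), had 0.663, 0.824 and 0.437 CPM at 54 h, against 2.82, 2.10 and 1.53 CPM at 30 h, a log2 change of -1.71 ± 0.24 (SE; adjusted p in edgeR = 2.77e-04). Aldh3a1, an aldehyde dehydrogenase, had 18.4, 23.1 and 23.2 CPM at 54 h, against 58.3, 52.6 and 35.6 CPM at 30 h (log2 -1.17 ± 0.17; adjusted p = 4.19e-04). In both genes the groups were apart, but the 30 h libraries differed by over 1.5-fold among themselves. F3, which encodes tissue factor, the starter of coagulation, had 6.52, 7.30 and 8.10 CPM at 54 h, against 12.6, 13.1 and 14.9 CPM at 30 h (log2 -0.88 ± 0.16; adjusted p = 0.00262). Sprr1a, a cornified envelope protein also induced by injury, fell by 1.14 ± 0.20 on the log2 scale (adjusted p = 0.0027), and Prl2c3, a prolactin relative, by 1.54 ± 0.25 (0.00125). Prl2c3 has near-identical family members, so its reads may be split between copies and its value is uncertain. These 5 genes and Ccl9, a chemokine that fell by 0.94 ± 0.15 (0.00119), stayed called without any single library.

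The other falls were less steady. Usp44, a deubiquitinase, and Cxcl5, a neutrophil chemokine, fell by 1.19 ± 0.29 and 1.17 ± 0.24 on the log2 scale (SE). Dpt, the matrix protein dermatopontin, fell by 1.06 ± 0.24, Ptgfr, the prostaglandin F receptor, by 0.97 ± 0.21, Uba7, which activates ISG15, by 0.90 ± 0.22, and Vegfd, a lymphatic growth factor, by 0.87 ± 0.19. Uba7 had 2.60, 3.41 and 2.77 CPM at 54 h, against 7.59, 4.73 and 4.08 CPM at 30 h, where 1 library stood high. Without that library, the first of 30 h, its edgeR adjusted p was 0.398, and it also lost its call without each library of 54 h (0.162, 0.0596 and 0.136). Cxcl5 lost its call without the first library of 54 h (0.071) or of 30 h (0.0715). Ptgfr lost it without the first (0.104) or second (0.121) of 54 h or the first of 30 h (0.14), and Usp44 without the first (0.168) or second (0.0897) of 54 h or the first (0.205) or the third (0.154) of 30 h. Vegfd was not called without the first (0.0932) or the third (0.0532) of 54 h or the first (0.0789) or the third (0.0694) of 30 h, nor Dpt without the first (0.0948) or the third (0.0673) of 54 h or the second (0.0597) or the third (0.0846) of 30 h.

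**Figure D2:**
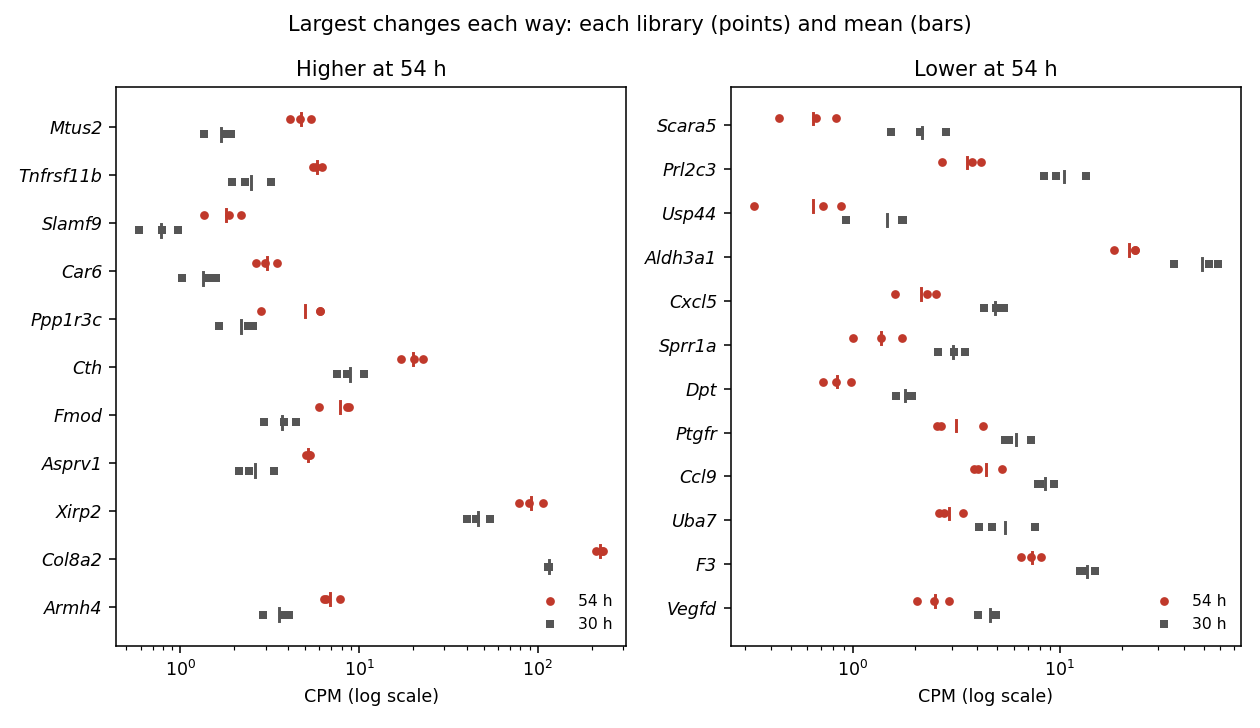
Points are the CPM (log scale) of each library, red circles for 54 h and grey squares for 30 h, and short bars are the means of 3 libraries, for 11 of the 12 largest rises (left) and the 12 largest falls (right). In every gene the 3 libraries of 54 h lie on 1 side of the 3 of 30 h, as the choice of genes required.

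Genes of the ATF4 amino acid response were the list with the most calls in the fit of all libraries without the replicate block; with it, the mitotic list had more (23, against 19 higher ATF4 genes). Of 39 tested, 11 were higher at 54 h and 0 lower, and the median log2 change was 0.28, with 34 positive and 5 negative. Over all genes tested 1.04% were higher and the median was 0.00. Cth, which makes cysteine from cystathionine (ENSMUSG00000028179, chr3:157894248-157925077), had 17.1, 22.8 and 20.2 CPM at 54 h, against 7.54, 10.7 and 8.61 CPM at 30 h, a log2 change of 1.17 ± 0.16 (SE; adjusted p in edgeR = 2.77e-04). Aldh1l2, a mitochondrial enzyme of folate metabolism, had 123, 111 and 128 CPM at 54 h, against 72.3, 60.7 and 65.6 CPM at 30 h (log2 0.86 ± 0.11; adjusted p = 1.11e-04). Pck2, mitochondrial phosphoenolpyruvate carboxykinase (ENSMUSG00000040618, chr14:55540266-55551242), had 78.9, 84.4 and 84.9 CPM at 54 h, against 52.3, 46.8 and 47.0 CPM at 30 h (log2 0.76 ± 0.08; adjusted p = 3.86e-06). In each of these 3 genes every library of 54 h stood well above every library of 30 h. Psph, the last enzyme of serine synthesis, rose by 0.49 ± 0.08 on the log2 scale (adjusted p = 0.00115), and Slc7a11, the cystine transporter, by 0.79 ± 0.18 (0.0208). Slc7a11 had 14.8, 12.4 and 13.9 CPM at 54 h, against 9.78, 6.44 and 7.48 CPM at 30 h, and the groups did not overlap. Its change was not called without the first (0.103) or the third (0.0675) library of 54 h or the second (0.133) or the third (0.0911) of 30 h.

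Atf4 itself had 389, 423 and 414 CPM at 54 h, against 338, 307 and 323 CPM at 30 h, a log2 change of 0.34 ± 0.06 (SE; adjusted p in edgeR = 0.00275). Atf4, Aars, Vldlr, Asns and Ddit3 were chosen after their values were seen. Aars, the alanyl-tRNA synthetase, rose by 0.32 ± 0.08 (adjusted p = 0.0334) and Vldlr, a lipoprotein receptor, by 0.69 ± 0.15 (0.0169). Eif4ebp1, an inhibitor of cap-dependent translation, rose by 0.46 ± 0.12 (0.0441), a call lost without any single library (0.0564 to 0.245). Aars was not called without any library but the second of 54 h (0.0622 to 0.175), nor Vldlr without the second (0.0619) or the third (0.0554) of 54 h or the first (0.055) or the third (0.11) of 30 h. Asns, asparagine synthetase, did not pass (log2 0.39 ± 0.11; adjusted p = 0.0724, and 6.16e-04 with the replicate block), nor did Ddit3, which encodes the stress factor CHOP (0.26 ± 0.13; 0.586). With the replicate block 19 of the list were higher and 1 lower. Without each library in turn 5 to 7 were higher (5 without the third library of either time, 6 without the first of either, 7 without the second), and in the libraries numbered 1 and 3 alone 5.

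ATF4 binds composite elements of the form TGATGNAA, so the 250 bases upstream of the RefSeq transcription starts were searched for this motif on both strands, with its reverse complement TTNCATCA. Of the 39 list members 32 had a promoter in the table, and 12 of these held a match; among the 8 called members with a promoter 4 did (Aars, Pck2, Slc7a11 and Vldlr). The matching stretches of Aars and Vldlr lie inside exons that GENCODE gives to other transcripts of the same genes, so they may be transcribed. Over all 32851 promoter windows 3.45% held a match, and over the 9972 tested genes with a promoter 2.44%. The motif belongs to the description of this gene list, so the matches describe the members and support no change. The windows of Pck2 and Slc7a11, 2 called members whose library values are given above, are shown from RefSeq on GRCm38.p6, 5′ to 3′ on the strand of the gene, with matches in capitals. The Pck2 window is chr14:55540123-55540210 (plus strand), with its match 103 bases before the start, and the Slc7a11 window is chr3:50443614-50443719 (minus strand), with matches 66 and 47 bases before it.
Pck2: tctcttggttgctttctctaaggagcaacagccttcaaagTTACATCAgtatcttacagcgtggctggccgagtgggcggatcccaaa
Slc7a11: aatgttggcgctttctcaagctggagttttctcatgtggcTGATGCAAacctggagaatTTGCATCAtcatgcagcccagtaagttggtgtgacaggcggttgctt
The match of Pck2 is on the reverse strand, and Slc7a11 has 1 on each strand.

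Mitotic genes leaned upward together, by small amounts. All 29 tested had a positive log2 change, with a median of 0.33 and a range of 0.13 to 0.50, and 7 passed in edgeR; 24 had an unadjusted p under 0.05, beside 9.50% of all genes tested. Kif23, a kinesin of cytokinesis (ENSMUSG00000032254, chr9:61915905-61946774), had 57.9, 54.9 and 53.7 CPM at 54 h, against 42.6, 40.5 and 41.0 CPM at 30 h, a log2 change of 0.42 ± 0.08 (SE; adjusted p in edgeR = 0.00324). Anln, the actin-binding protein anillin, had 229, 214 and 207 CPM at 54 h, against 163, 164 and 162 CPM at 30 h (log2 0.41 ± 0.07; adjusted p = 0.00324). The groups were apart in both. Kif20a, a kinesin, and Tpx2, an activator of Aurora A, rose by 0.41 ± 0.08 (0.00671) and 0.34 ± 0.07 (0.00771). Kif20a was not called without the second library of 54 h (0.0522), nor Tpx2 without the first of 54 h (0.0536) or the first (0.0535) or second (0.0616) of 30 h. With the replicate block 23 of the 29 were higher. Without each library in turn the count was 3 to 5 (3 without the first library of either time or the second of 30 h, 4 without the second of 54 h, 5 without the third of either), and in the libraries numbered 1 and 3 alone 0, with the median still 0.31.

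Genes of DNA replication did not show this pattern. Of 30 tested, 0 passed in edgeR, DESeq2 or limma-voom, 2 had an unadjusted p under 0.05, 2 were lower with the replicate block, and the median log2 change was -0.04. Cdc6, which loads the replicative helicase, had 11.4, 13.8 and 14.5 CPM at 54 h, against 17.5, 18.3 and 15.7 CPM at 30 h, a log2 change of -0.37 ± 0.12 (SE; adjusted p in edgeR = 0.154, and 0.0294 with the replicate block). Replication-dependent histones had a median of 0.18, with 18 of 19 positive, 0 called in edgeR, DESeq2 or limma-voom and 0 at an unadjusted p under 0.05. Mki67, a general proliferation marker chosen after its values were seen, had 245, 190 and 235 CPM at 54 h, against 198, 167 and 197 CPM at 30 h (log2 0.25 ± 0.11; adjusted p = 0.419). Its groups overlapped. The difference between the mitotic and the replication lists was not tested.

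Genes of the extracellular matrix moved in both directions. Of 23 collagens tested 2 were higher and 2 lower (2 and 4 with the replicate block), with a median log2 change of 0.11. The shares over all genes tested were 1.04% and 0.662% (3.01% and 2.26% with the block). Col8a2, a chain of the short-chain collagen VIII (ENSMUSG00000056174, chr4:126286793-126314330), had 227, 212 and 232 CPM at 54 h, against 114, 116 and 116 CPM at 30 h, a log2 change of 0.96 ± 0.08 (SE; adjusted p in edgeR = 2.33e-07). Col8a1, the other chain of collagen VIII, had 805, 747 and 735 CPM at 54 h, against 524, 506 and 515 CPM at 30 h (log2 0.57 ± 0.06; adjusted p = 1.67e-05). Both chains were higher in every library of 54 h. Col3a1, a fibrillar collagen, was the most abundant gene among those lower, with 6899, 6670 and 6752 CPM at 54 h, against 9243, 8862 and 8443 CPM at 30 h (log2 -0.39 ± 0.06; adjusted p = 8.37e-04). Col25a1, a membrane collagen needed for innervation of muscle in mice, had 12.3, 9.78 and 13.003 CPM at 54 h, against 20.5, 19.2 and 18.3 CPM at 30 h (log2 -0.73 ± 0.15; adjusted p = 0.00771). Col25a1 was not called without the second library of 54 h (0.0637) or the first of 30 h (0.0535).

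Of 38 matrix proteins and proteoglycans 4 were higher and 2 lower, with a median of 0.06, and of 30 matrix enzymes and inhibitors 3 were higher, with a median of 0.05. The shares over all genes tested were 1.04% higher and 0.662% lower, and 3.01% and 2.26% with the replicate block. Fbln5, an elastic fibre protein (ENSMUSG00000021186, chr12:101746565-101819055), had 148, 163 and 155 CPM at 54 h, against 91.8, 96.6 and 93.3 CPM at 30 h, a log2 change of 0.73 ± 0.06 (SE; adjusted p in edgeR = 2.33e-07). Timp3, an inhibitor of metalloproteinases, had 1020, 761 and 934 CPM at 54 h, against 543, 464 and 579 CPM at 30 h (log2 0.78 ± 0.11; adjusted p = 2.90e-04). In both genes the groups were apart, and in Timp3 the second library was the lowest at both times. Ccn2, connective tissue growth factor and a target of YAP, rose by 0.71 ± 0.10 on the log2 scale (3.73e-04), Timp1 by 0.51 ± 0.12 (0.0232) and Sparc, an abundant collagen chaperone, by 0.28 ± 0.06 (0.0214). Ogn, the proteoglycan osteoglycin, fell by 0.65 ± 0.12 (0.00469). Timp1 was not called without the second library of 54 h (0.145) or the first (0.148) or the third (0.0616) of 30 h, nor Sparc without the first (0.055) or second (0.0874) of 54 h or the first (0.115) or second (0.0757) of 30 h. With the replicate block 9 of the 38 matrix proteins were higher and 5 lower, and 6 of the 30 enzymes and inhibitors were higher and 2 lower. Without the first library of either time or the second of 30 h, 2 of the 38 were higher, and 1 was lower whichever library was left out; without the first or the third library of 30 h or the second of 54 h, 2 of the 30 were higher.

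A few genes named for smooth muscle were also higher. Tagln, an actin-binding protein that smooth muscle and immature skeletal muscle express, had 1136, 995 and 1036 CPM at 54 h, against 693, 706 and 793 CPM at 30 h, a log2 change of 0.53 ± 0.08 (SE; adjusted p in edgeR = 2.77e-04), and Mcam, a cell adhesion molecule, rose by 0.59 ± 0.08 (2.77e-04). These 2 of 12 passed (4 with the replicate block), beside 1.04% of all genes tested that were higher (3.01% with the block). The median was 0.10, and the list summed to 10356 to 10642 CPM at 54 h and 9047 to 9940 CPM at 30 h. Of the fibroblast markers 2 of 11 were lower: Dpt, above, and Pdgfra, the PDGF alpha receptor, which fell by 0.35 ± 0.08 on the log2 scale (adjusted p = 0.023). Pdgfra was not called without the first (0.127) or second (0.101) library of 54 h or the first (0.147) or the third (0.0853) of 30 h. The fibroblast list summed to 3825 to 4125 CPM at 54 h and 3725 to 3998 CPM at 30 h, with Thy1 and Tcf21 at 0. Osteoblast and chondrocyte markers summed to 2403 to 3339 CPM at 54 h and 1956 to 2341 CPM at 30 h, with 0 of 6 called in edgeR, DESeq2 or limma-voom (3 at an unadjusted p under 0.05, and 2 higher with the replicate block) and Ibsp and Acan at 0. In the fibroblast list and the osteoblast and chondrocyte list the sums came from the other members, so the genes at 0 do not show that a cell type was absent. The part of other cell types in the matrix changes was not tested.

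Secreted signals also changed in both directions. Hbegf and Ereg, ligands of the EGF receptor family, had 93.5, 103 and 86.3 CPM and 35.4, 27.4 and 32.7 CPM at 54 h, against 54.6, 64.9 and 62.3 CPM and 20.3, 21.9 and 21.3 CPM at 30 h. They rose by 0.64 ± 0.10 and 0.59 ± 0.10 on the log2 scale (SE; adjusted p in edgeR = 6.62e-04 and 0.00262) and were the 2 of 19 genes of this list that passed, with a median of 0.08; with the replicate block 5 passed. Cxcl14, a chemokine, rose by 0.82 ± 0.14 (0.00135) and Ptgs2, the inducible prostaglandin synthase, by 0.49 ± 0.09 (0.00275), while Cxcl5 and Ccl9, above, fell. In all, 2 of 24 chemokine and inflammation genes were higher and 3 lower (3 and 5 with the replicate block), with a median of -0.09. The shares over all genes tested were 1.04% and 0.662% (3.01% and 2.26% with the block). Wnt11, a Wnt ligand, rose by 0.88 ± 0.19 (0.0134), Igfbp7, which binds insulin-like growth factors, by 0.42 ± 0.11 (0.0443), and Fstl3, an inhibitor of activin, by 0.38 ± 0.09 (0.0305). Smad3, the transcription factor that activin and TGF beta act through, fell by 0.45 ± 0.09 (0.00497) and Pik3r1, a regulatory subunit of PI3 kinase, by 0.37 ± 0.09 (0.0286).

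Each of these last 5 calls rested on some libraries. Wnt11 was not called without the second library of 54 h (edgeR adjusted p = 0.0916) or the first (0.122) or second (0.0526) of 30 h, Smad3 without the second of 54 h (0.0529) or the first of 30 h (0.058), and Fstl3 without any single library (0.0536 to 0.162). Igfbp7 was not called without the second (0.243) or the third (0.101) of 54 h or the first (0.268) or the third (0.118) of 30 h, nor Pik3r1 without the second of 54 h (0.199) or the first (0.148) or the third (0.11) of 30 h. Single calls in further lists were Ier3, an early response gene, which rose by 0.45 ± 0.09 (SE; 0.0105), Sdc4, syndecan 4, a mark of satellite cells, which fell by 0.22 ± 0.05 (0.0229), and Glul, glutamine synthetase, which fell by 0.25 ± 0.06 (0.0214). All 3 lost their call without some libraries, Ier3 without the second of 54 h (0.0619) or the first of 30 h (0.0904), Sdc4 without any but the first of 30 h (0.0704 to 0.122), and Glul without the first (0.127) or second (0.0531) of 54 h or the first (0.11) or second (0.0547) of 30 h.

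Lists with 0 or 1 genes called at this interval include interferon targets, lipid enzymes and energy metabolism. Interferon response genes had a median log2 change of -0.28, with 35 of 40 negative, and 0 passed in edgeR or limma-voom (10 had an unadjusted p under 0.05, DESeq2 called 1 lower, and the replicate block 3 lower). Gbp2, a guanylate binding protein, had 7.85, 11.8 and 9.99 CPM at 54 h, against 19.3, 14.5 and 13.6 CPM at 30 h (log2 -0.67 ± 0.18, SE; edgeR adjusted p = 0.0705, and 0.00314 with the replicate block). Genes of MHC class I presentation had a median of -0.17, with 13 of 15 negative, and 0 passed in edgeR or limma-voom (6 had an unadjusted p under 0.05, DESeq2 called 1 lower and the replicate block 4). Respiratory chain subunits, 45 tested, had a median of -0.03, with 0 called in edgeR, DESeq2 or limma-voom and 0 at an unadjusted p under 0.05. Glycolysis, fatty acid oxidation, fatty acid synthesis and the unfolded protein response had medians of 0.01, -0.01, 0.03 and 0.03 and 0 calls in the same 3 tools, with 1, 3, 1 and 0 genes at an unadjusted p under 0.05. Of 26 cholesterol genes 1 passed (4 lower with the replicate block): Hsd17b7, an enzyme of the pathway, fell by 0.38 ± 0.09 (0.0305), a call lost without any library but the second of 30 h (0.0588 to 0.245).

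Further lists held 0 called genes in edgeR, DESeq2 and limma-voom: hypoxia targets (22 tested, 2 at an unadjusted p under 0.05), heat shock (18 and 2), cytosolic ribosomal proteins (45 and 2), CDK inhibitors and p53 targets (20 and 1), and adipocyte, neural and immune or endothelial markers (3, 6 and 4 tested; 0, 0 and 1). Their medians lay between -0.04 and 0.06. In the remaining lists the called members are named above: 1 higher and 1 lower of 14 YAP targets (Ccn2 and F3), 24 TGF beta genes, 15 genes of the IGF axis and 22 myokines, 1 higher of 24 immediate early, 21 Wnt, 24 NRF2 and 22 FoxO genes, and 1 lower of 16 Notch and 14 glucocorticoid genes. Their medians ran from -0.05 (FoxO) to 0.12 (Wnt). With the replicate block the counts higher and lower were 2 and 2 for YAP, 4 and 2 for TGF beta, 4 and 1 for IGF, 4 and 4 for myokines, 2 and 0 for immediate early, 3 and 1 for Wnt, 4 and 1 for NRF2, 1 and 1 for FoxO and for glucocorticoid genes, and 0 and 3 for Notch. In the lists with 0 calls the block gave at most 2 in either direction, apart from interferon and MHC class I genes.

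**Figure D3:**
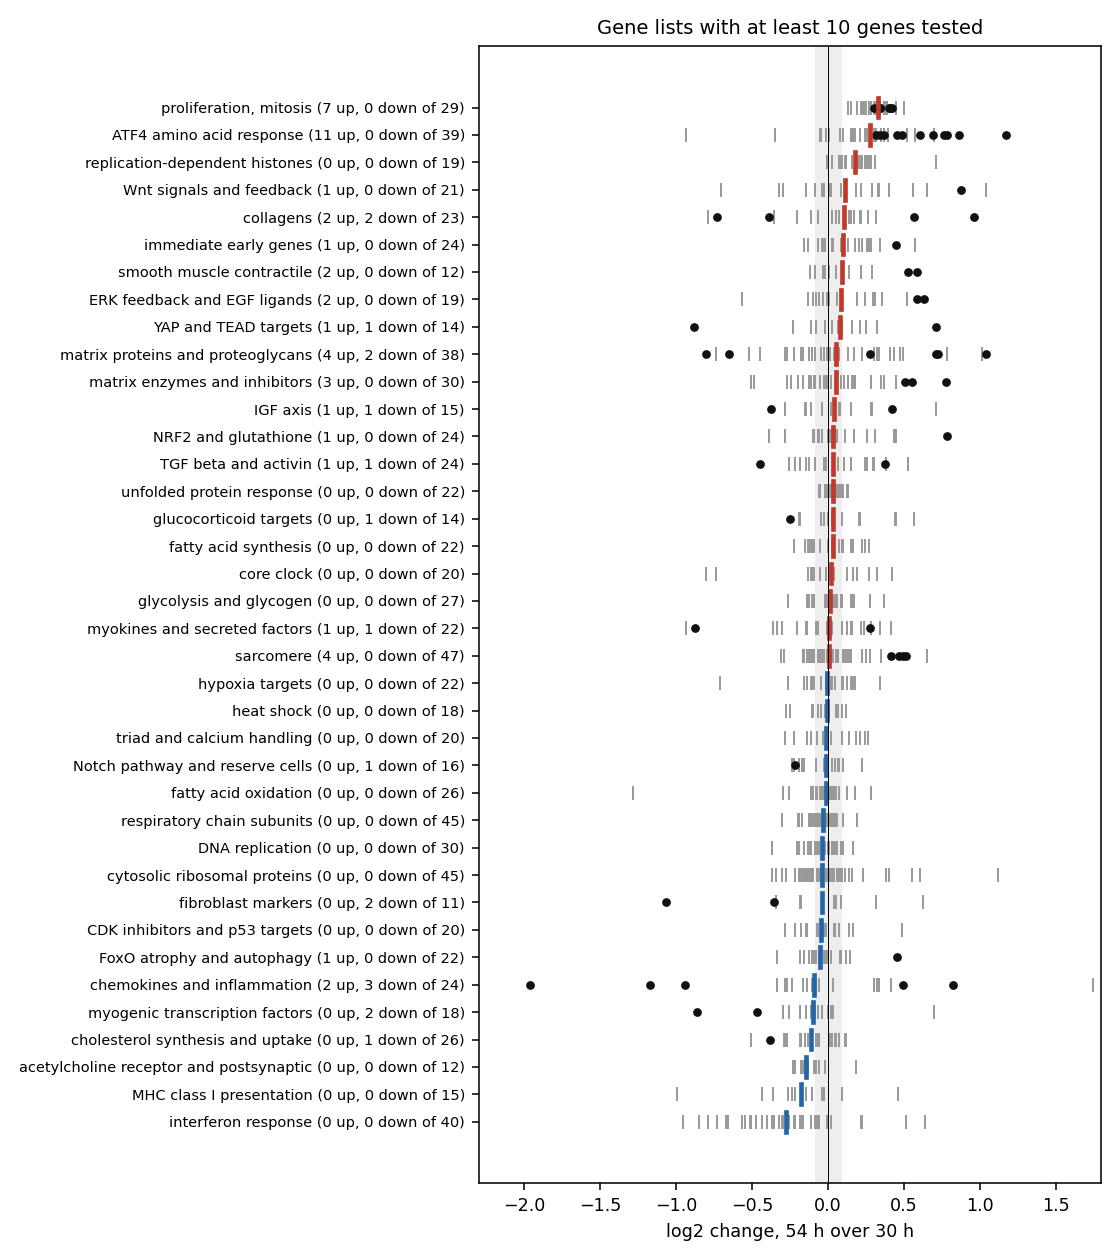
Each row is 1 of the gene lists with at least 10 genes tested; grey ticks are the log2 changes, 54 h over 30 h, of genes not called, black points those of called genes, and coloured bars the list medians. The grey band holds the middle 50% of all genes tested, from -0.08 to 0.09. The medians of the mitotic list (0.33) and the ATF4 list (0.28) lie farthest to the right, and that of the interferon list (-0.28) lies farthest to the left.

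Most genes called at 54 h against 30 h had the same sign in 48 h against 24 h and in 60 h against 36 h, measured in other libraries. Both intervals overlap in time with that from 30 to 54 h, so they are not readings of separate periods. In 48 h against 24 h, which shares no library with 54 h against 30 h, 343 genes were higher and 154 lower, 2.7% and 1.21% of those tested and 3.92% together. Of the 132 genes higher at 54 h 87 were also higher at 48 h (65.9% of the 132 and 25.4% of the 343), and 0 were lower. Of the 84 lower genes 47 were also lower at 48 h (56.0% of the 84 and 30.5% of the 154), and 1 was higher. The sign was shared by 97.0% of the 132 and 92.9% of the 84, while 48.6% and 51.4% of all genes tested had those signs. In 60 h against 36 h, where 0.504% of genes were higher and 0.37% lower, 36 of the 132 were also higher and 24 of the 84 also lower (56.3% and 51.1% of the genes called in that interval), and 87.1% and 97.6% shared the sign. Without the first library of 30 h the counts shared with 48 h against 24 h were 40 and 27, without the second of 54 h 51 and 32, without the first of 54 h 61 and 29, and without the second of 30 h 58 and 35. Those shared with 60 h against 36 h were 24 and 14, 22 and 14, 28 and 18, and 29 and 17 in the same order.

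At the times between, the median called gene stood at an intermediate level. For the 132 genes higher at 54 h, the median gene had covered 38.7% of the way between its 30 h and 54 h means by 36 h, 75.7% by 42 h and 74.8% by 48 h, and stood at 89.5% by 60 h. For the 84 lower genes these values were 17.6% by 36 h, 62.9% by 42 h, 62.5% by 48 h and 87.1% by 60 h. The 30 h and 54 h means chose the genes, so the scale is set by them. The earlier times did not continue a one-way course: at 12 h the median lower gene stood 73.8% of the way to its 54 h level, with 30 of 84 at or past it, and at 18 h 31.6% and at 24 h -15.6%. Of the higher genes 26 of 132 were at or past their 54 h level at 12 h, and the medians were -29.3% at 12 h, 5.36% at 18 h and -21.4% at 24 h, where a negative value lies beyond the 30 h level. Mean levels of Mymx were 77.6 CPM at 12 h and 67.5 CPM by 24 h, then 57.1 CPM by 30 h, 55.2 CPM by 36 h, 41.1 CPM by 42 h, 44.5 CPM by 48 h, and 31.4 and 31.2 CPM by 54 and 60 h (3 libraries each). Cth had its highest mean at 12 h and its lowest at 24 h. After 28.4 CPM in the 12 h libraries its mean was 14.7 CPM by 18 h, 6.05 CPM by 24 h and 8.95 CPM by 30 h. Thereafter it was 16.04 CPM by 36 h, 18.8 CPM by 42 h, 22.1 CPM by 48 h, 20.01 CPM by 54 h and 26.9 CPM by 60 h. Its mean at 54 h was thus below that at 12 h.

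**Figure D4:**
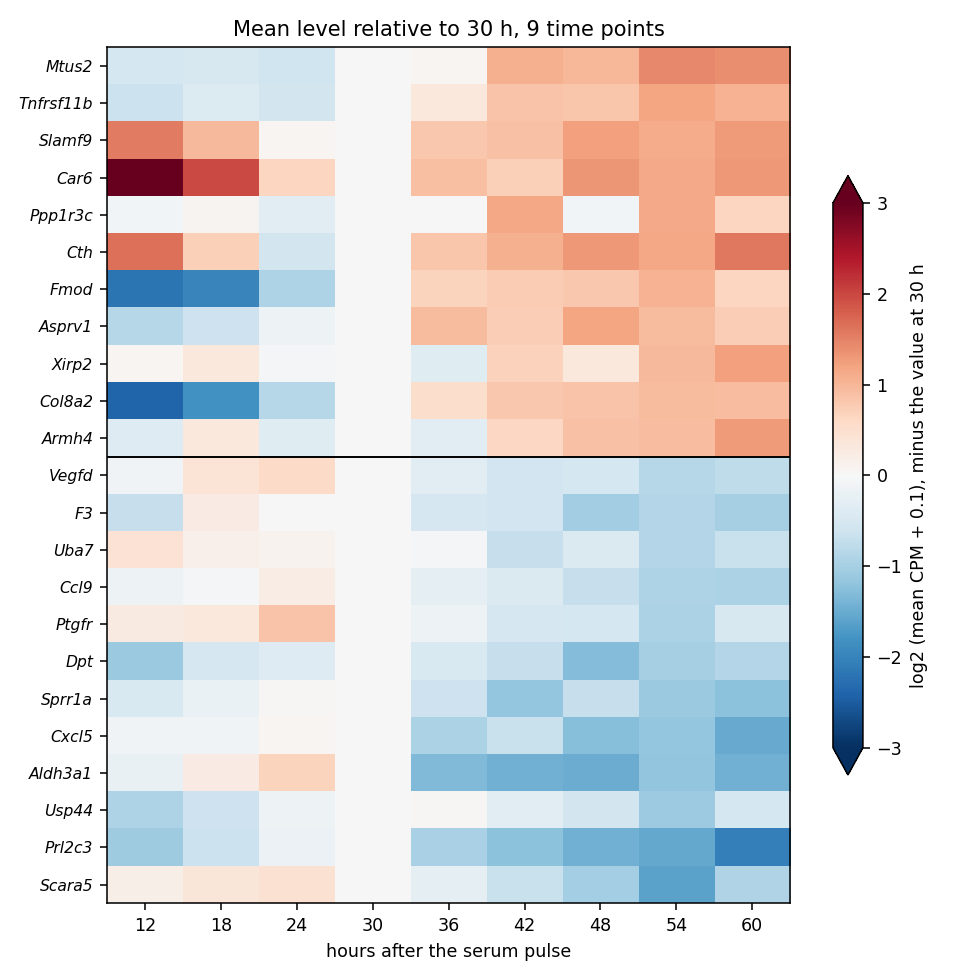
Colours show, for 23 genes with the largest changes (11 higher above the line, 12 lower below it), the mean level at each of 9 time points as log2 (mean CPM + 0.1) minus the value at 30 h; colours saturate at 3 either way. Car6, Cth and Slamf9 are high at 12 h, low at 24 and 30 h and higher again at 54 h, while Mtus2 is low until 36 h.

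The change was also set against that over an earlier 24 h interval. In 42 h against 18 h 553 genes were higher and 294 lower, 4.36% and 2.32% of those tested and 6.68% together. A difference between the 2 changes (edgeR test of 54 h minus 30 h less 42 h minus 18 h, no shared library) was called for 223 genes, 1.76% of those tested; 75 had a more positive change at 54 h against 30 h and 148 a more negative one. All 148 had a positive change in 42 h against 18 h, and 74 of the 75 had a negative one there. Of the 223, 151 had opposite signs in the 2 intervals. Among the 216 genes called at 54 h against 30 h, 47 (21.8%) differed from 42 h against 18 h. Cholesterol synthesis held 23 of the 148: 24 of its 26 genes were higher at 42 h than at 18 h, with a median log2 change of 0.92, while their median at 54 h against 30 h was -0.11. Nsdhl, a sterol dehydrogenase, had a log2 change of -0.06 ± 0.06 at 54 h against 30 h and 1.25 at 42 h against 18 h, a difference of -1.31 ± 0.09 (SE; adjusted p in edgeR = 2.77e-09). Lss and Fdft1, of the same pathway, differed by -1.46 ± 0.12 (7.57e-08) and -1.02 ± 0.09 (1.28e-07).

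The ATF4 list and the mitotic list differed in the other direction. Of the 39 ATF4 genes 2 were higher and 14 lower at 42 h than at 18 h, with a median of -0.29, and 13 had a more positive change at 54 h against 30 h. Aldh1l2 changed by 0.86 at 54 h against 30 h and -1.48 at 42 h against 18 h, a difference of 2.34 ± 0.16 (SE; adjusted p in edgeR = 2.77e-09). Its mean was 404 CPM at 12 h and 255 CPM by 18 h, then 111 CPM by 24 h, 66.2 CPM by 30 h, 91.6 CPM by 42 h and 121 CPM by 54 h, so 30 h was its lowest among these. Of the 29 mitotic genes 5 were lower and 0 higher at 42 h than at 18 h, and 13 had a more positive change at 54 h against 30 h. Kif23 differed by 0.78 ± 0.11 (adjusted p = 1.08e-04). Its means were 35.3 CPM at 12 h, 64.2 CPM by 18 h, 49.5 CPM by 24 h, 41.4 CPM by 30 h and 49.9 CPM by 36 h. They were 50.0 CPM by 42 h and 55.5 CPM by 54 h. Its mean at 54 h was thus below that at 18 h, and its mean at 30 h was below those at 24 and 36 h. The mitotic list had a median log2 change of 0.16 in 48 h against 24 h and -0.06 in 60 h against 36 h. Without the third library of 30 h 47 genes in all had a more positive change and 123 a more negative one, and without the other single libraries 57 to 64 and 116 to 133.

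**Figure D5:**
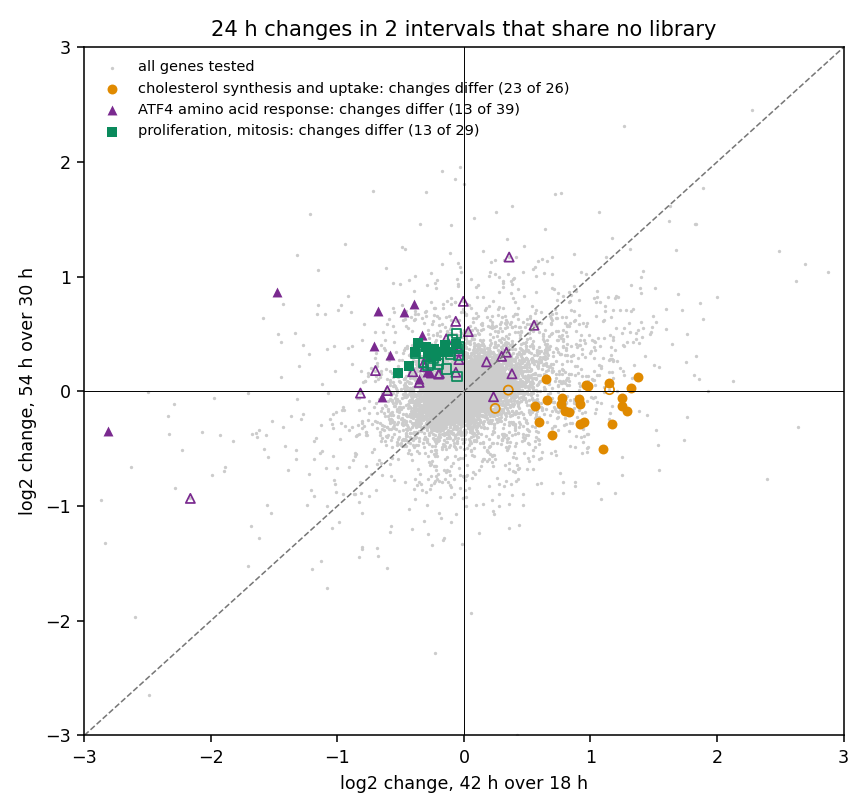
Each point is a gene, with its log2 change at 42 h over 18 h (horizontal) and at 54 h over 30 h (vertical); grey points are all genes tested and the dashed line marks equal change. Filled symbols are list members whose changes differ: 23 of 26 cholesterol genes (orange, to the right near 0 on the vertical axis), 13 of 39 ATF4 genes (purple) and 13 of 29 mitotic genes (green), both mostly to the left of and above the line; open symbols are the other members, and 2 genes lie outside the axes.

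The interval of 48 h against 24 h differed less. A difference from it was called for 11 genes (0.0867% of those tested; 456 had an unadjusted p under 0.05), 10 of them with a more negative change at 54 h against 30 h. Scml4, a Polycomb-related protein, had a log2 change of -0.06 ± 0.07 at 54 h against 30 h and 0.71 at 48 h against 24 h, a difference of -0.77 ± 0.09 (SE; adjusted p in edgeR = 4.13e-04). Col25a1 fell at 54 h against 30 h and was higher at 48 h than at 24 h (log2 0.55), a difference of -1.28 ± 0.20 (0.00666). Its means were 30.9 CPM at 48 h and 21.1 CPM at 24 h, beside 11.7 CPM at 54 h and 19.3 CPM at 30 h. Crispld2, a secreted protein, differed by -1.32 ± 0.20 (0.00593), and Acss2, which makes acetyl-CoA from acetate, by -0.70 ± 0.12 (0.0176). Col8a2 and Tagln rose in both intervals, by less at 54 h against 30 h, with differences of -0.75 ± 0.12 (0.00593) and -0.62 ± 0.11 (0.0171). Without each single library 4 to 10 genes were called (4 without the third of 30 h, 5 without the third of 54 h, 7 without the first of either time or the second of 54 h), and in the libraries numbered 1 and 3 alone 0. DESeq2 called 27, and the replicate block gave 84.

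Among the most abundant called genes not yet described, Ccdc80, a secreted matrix-binding protein, had 1768, 1832 and 1730 CPM at 54 h, against 1393, 1428 and 1411 CPM at 30 h, and rose by 0.33 ± 0.06 on the log2 scale (SE; adjusted p in edgeR = 0.0037). Dclk1, a microtubule-associated kinase, had 946, 857 and 920 CPM at 54 h, against 1147, 1119 and 1043 CPM at 30 h, and fell by 0.28 ± 0.06 (0.0229). Peg3, an imprinted zinc finger gene, fell by 0.31 ± 0.07 (0.0214). The groups were apart in all 3, by little in Dclk1. Dclk1 was not called without the second (0.148) or the third (0.0667) library of 54 h or the first (0.16) or second (0.0908) of 30 h, nor Peg3 without the first (0.0677) or second (0.16) of 54 h or the first of 30 h (0.173).

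Some further genes were chosen after their values were seen. Mgll, which breaks down monoacylglycerols (ENSMUSG00000033174, chr6:88724412-88828360), had 193, 179 and 171 CPM at 54 h, against 97.9, 98.0 and 105 CPM at 30 h, a log2 change of 0.85 ± 0.07 (SE; adjusted p in edgeR = 2.33e-07). Fbxo40, a muscle ubiquitin ligase subunit that targets IRS1, had 28.5, 25.1 and 24.8 CPM at 54 h, against 15.8, 17.5 and 17.1 CPM at 30 h (log2 0.64 ± 0.09; adjusted p = 2.77e-04). Angpt4, an angiopoietin, had 25.8, 29.3 and 28.2 CPM at 54 h, against 43.8, 39.99 and 42.8 CPM at 30 h (log2 -0.60 ± 0.07; adjusted p = 1.80e-05). The groups were well apart in all 3, and the calls stood without any single library. Angpt4 had been low earlier, with 8.65 CPM at 12 h and 25.4 at 18 h, and its change at 42 h against 18 h was 0.51, so that the 2 intervals differed by -1.12 ± 0.10 (1.32e-07).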

How the data were processed

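The files give RNA-seq expression in 27 libraries of C2C12 myotubes. The authors deposited unnormalized counts for 20446 Ensembl genes, of which 3717 had no read. The submitters' processing notes name Trim Galore 0.4.0, cutadapt 1.9.1, featureCounts and mm10; for the aligner, the annotation release and the settings of the counting, nothing is given in the sources used here. Names and positions came from GENCODE M21, which matched 20318 genes and left 128 without a match.

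Titles gave each library its time point and number. Genes passed filterByExpr (minimum count 10), which left out 7759. One edgeR 4.0.16 quasi-likelihood fit (R 4.3.3, TMM scaling) of all 27 libraries, with 9 time points, gave each contrast and the differences between contrasts, so 1 estimate of the spread is shared. The biological coefficient of variation was 11.8%. Levels are CPM with TMM scaling, and low counts limit the precision of genes near 1 CPM. The SE of a log2 change was not estimated by the fit itself. It was worked back from the edgeR test, as the absolute log2 change divided by the square root of F. Scripts were tested on simulated data. The members, the 42 gene lists and the tests were chosen with earlier results of these data known, so lists are described by counts and medians without a test.

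Genes were named if they were among the 12 largest called changes each way (mean level 1 CPM or more, groups apart), core clock genes, up to 4 called members of each list (if 0, the 1 with the smallest p), the 5 most abundant called genes each way or the 6 called genes with the smallest p of each difference; predicted genes were left out, and 4 genes are not reported here, though counts over lists and over all genes include them. Libraries with the same number deviated together at 54 h and 30 h (correlations of 0.367, 0.724 and 0.265 for numbers 1, 2 and 3, all over 0.1). Unlike numbers did so too for number 1 of 54 h with 3 of 30 h (0.510) and 3 with 1 (0.184). Number 2 with any other number gave a negative value. The check thus sets number 2 apart and cannot show that numbers 1 and 3 pair. The main fit made no use of the numbers. They were taken to pair the libraries only in the fit with the replicate number as a block, which was an alternative. Others were DESeq2 1.42.0, limma-voom (limma 3.58.1), median of ratios scaling, no filter, a filter at a mean of 1 CPM, adjusted p under 0.01, the 6 libraries alone with and without the block, and each library left out. The 18 libraries numbered 1 and 3 were added after the data were seen.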

Additional observations from a re-analysis of the deposited data

Results flagged for a closer look

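For 37 values on named genes, the change at 54 h against 30 h differed from that of another 24 h interval. The test was of the difference itself (edgeR, adjusted p under 0.05). Of the 37, 7 are against 48 h and 24 h and 30 against 42 h and 18 h. Some genes were named because they passed this test and some after their values were seen, so the 37 are not an independent count. Over all genes tested, 11 (0.0867%) and 223 (1.76%) differed. Differences are log2, the change at 54 h against 30 h minus the other change.

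Against 48 h over 24 h, the difference was -0.70 for Acss2, -1.28 for Col25a1, -0.75 for Col8a2, -1.32 for Crispld2, -0.48 for Nsdhl, -0.77 for Scml4 and -0.62 for Tagln. All 7 genes were higher at 48 h than at 24 h.

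Against 42 h over 18 h, genes of the ATF4 list had more positive changes, with differences of 0.57 for Aars, 2.34 for Aldh1l2, 1.11 for Asns, 1.16 for Pck2, 0.82 for Psph and 1.17 for Vldlr. So did the mitotic genes Anln (0.47), Kif20a (0.56), Kif23 (0.78) and Tpx2 (0.47). Car6 differed by 2.51, Slamf9 by 1.32 and Mybpc2 by 0.41. Ifit1, an interferon target chosen after its values were seen, differed by 2.50: its change was -0.01 at 54 h against 30 h and -2.50 at 42 h against 18 h. Its levels were low and uneven, with 2.60, 3.11 and 1.36 CPM at 54 h, against 3.70, 2.04 and 1.38 CPM at 30 h. Of the 40 interferon response genes tested, 2 had a more positive change and 0 a more negative one. Irf7, chosen in the same way, was not called (1.39, edgeR adjusted p = 0.107).

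More negative changes than at 42 h over 18 h were found for the cholesterol enzymes Fdft1 (-1.02), Hsd17b7 (-1.07), Lss (-1.46) and Nsdhl (-1.31) and for Acss2 (-0.97). Matrix and secreted products with such a difference were Cilp (-1.99), Col8a2 (-1.66), Crispld2 (-1.75), Fmod (-1.83), Ogn (-0.79), Cxcl14 (-1.18) and Angpt4 (-1.12). The others were Cdc6 (-0.78), Mgll (-0.84), Scml4 (-0.76) and Tagln (-0.84).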

How the results depend on the processing

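The 132 genes higher and 84 lower at 54 h came with the same sign wherever they were called, and 0 of the calls made under any alternative opposed them. DESeq2 (180 and 120), limma-voom (130 and 82), median of ratios scaling (132 and 84), no filter (109 and 69) and a mean of at least 1 CPM (125 and 87) moved the counts by less than 1.5 times. The replicate block gave 382 and 287, adjusted p under 0.01 gave 56 and 30, the 6 libraries alone gave 5 and 1 (848 genes had an unadjusted p under 0.05) and, with the replicate block, 335 and 235. The libraries numbered 1 and 3 alone gave 39 and 29. Leaving out 1 library gave 58 to 97 higher and 34 to 64 lower genes, and 46 and 25 were called in all 6 such fits. For leaving out a library, fewer libraries enter the fit; the cause was otherwise not tested.

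Genes also called in 48 h against 24 h (87 higher, 47 lower) numbered 246 and 166 with the replicate block, 41 and 18 at adjusted p under 0.01, 30 and 16 in the libraries numbered 1 and 3, and 40 to 69 and 27 to 40 without 1 library. Those also called in 60 h against 36 h (36 and 24) numbered 107 and 86, 16 and 8, 13 and 4, and 22 to 29 and 14 to 20 in the same order, and DESeq2 gave 38 lower. Between 60 h and 36 h the libraries numbered 1 did not deviate together (correlation -0.106), while those numbered 2 and 3 did (0.464 and 0.414). Changes more positive and more negative than in 42 h against 18 h (75 and 148) numbered 230 and 387 with the block, 36 and 86 at 0.01, 33 and 85 in the libraries numbered 1 and 3, and 47 to 64 and 116 to 133 without 1 library; DESeq2 gave 120 more positive. For 48 h against 24 h (11) the counts were 84 with the block, 4 at 0.01, 27 in DESeq2, 7 without a filter, 0 in the libraries numbered 1 and 3, and 4 to 10 without 1 library.

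Of the 72 named genes called, all 72 were also called by DESeq2 and with the replicate block, 71 by limma-voom, 46 at adjusted p under 0.01, 35 in the libraries numbered 1 and 3, 6 in the 6 libraries alone, and 44 to 58 without 1 library.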
